A study of Mus musculus with 20 samples.

Results

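Heavy chain variable (Ighv) segments were followed in IgA+ plasma cells (PCs) of the mouse small intestine, to describe which segments these cells transcribed, how far animals differed and whether usage differed with time of day. Members were all genes with a symbol starting with Ighv and at least 10 counts in total over the raw count table of 20 libraries. Of 185 Ighv identifiers in that table, 136 met the rule, out of 47069 genes in all, while 36 had 0 counts and 13 had between 1 and 9. The members just inside the limit were Ighv1-24 with 12 counts and Ighv1-44 with 14, and the highest segment outside it was Ighv1-27 with 7. The GENCODE M21 annotation calls 110 members genes and 26 pseudogenes, in 15 families. All libraries came from wild-type C57BL/6 mice, with no agent or other allele in the labels, and each library was from 1 animal. Cells were released from the lamina propria and sorted on CD138 and IgA, and 5 animals were taken at each of ZT0, ZT6, ZT12 and ZT18. Zeitgeber time (ZT) counts the hours from lights on. Animals were bought in, matched for age and sex, but which of them shared a cage were in no source used here, so time of day and a shared cage cannot be told apart.

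An antibody heavy chain is made after a developing B cell joins 1 V segment, 1 D segment and 1 J segment of the Igh locus, so each B cell, and all PCs that descend from it, transcribes essentially 1 productive V segment at a very high rate. Intestinal PCs secrete IgA against food and commensal antigens and can live long in the tissue, and members of an expanded clone share the V segment that their founder chose. The mix of Ighv transcripts in a bulk library therefore reflects which clones were sampled and how much heavy chain RNA each cell held. In these bulk libraries fewer cells using a segment and less RNA per cell cannot be told apart.

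The libraries held 35.6 to 68.0 M counts (M, mega, as in CPM), of which 2.35 to 5.23 M fell in Ighv segments. The 95% Wilson interval of a share among the 40 leading segments was at most ± 0.0479 percentage points in any library, and such intervals cover counting error only, since reads were not traced to single molecules. The label IgA+ PC was borne out by the markers: Igha made up 99.7 to 99.9% of the heavy chain constant counts, and Sdc1, which encodes CD138, stood at 631 to 854 CPM (here, counts per M of the library's total). The B cell factor Pax5 reached at most 0.372 CPM and the naive B cell constant region Ighd 0.376 CPM. The summed level of the naive and memory B cell list, of which 8 of 10 genes could be tested and none was at 0 in all libraries, ranged over 122 to 281 CPM (ZT0), 61.3 to 144 CPM (ZT6), 85.7 to 236 CPM (ZT12) and 58.8 to 284 CPM (ZT18). Evenness is set against the Ighm plus Ighd share of the constant counts beside the evenness values, and the part of these transcripts in the other results was not tested.

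V segments resemble each other, and the counts for one can include reads of another. Every member has a most similar other member, with a median identity of 94.6%, no pair was identical, and 24 segments fell into 11 groups of at least 97% identity. The reads also carry the somatic mutations of each clone, which the reference lacks. The segments below are shown because the results turn on them: the 3 with the highest mean share (Ighv1-26, Ighv1-55, Ighv1-39) and 5 that differed over the times (Ighv1-64, Ighv1-43, Ighv1-81, Ighv3-4, Ighv2-4). Each is the germline sequence of the last 290 bases of the V exon from the GENCODE M21 transcripts, minus strand of GRCm38, where the locus lies on chromosome 12: Ighv1-26 at chr12:114788372-114788661, Ighv1-55 at chr12:115208095-115208384, Ighv1-39 at chr12:114914599-114914888, Ighv1-64 at chr12:115507545-115507834, Ighv1-43 at chr12:114945950-114946239, Ighv1-81 at chr12:115920279-115920568, Ighv3-4 at chr12:114253617-114253906 and Ighv2-4 at chr12:113653291-113653580. Capitals mark the bases that differ from the most similar other member, which is Ighv1-18 for Ighv1-26, Ighv1-62 for Ighv1-55, Ighv1-19 for Ighv1-39, Ighv1-53 for Ighv1-64, Ighv1-42 for Ighv1-43, Ighv1-85 for Ighv1-81, Ighv3-2 for Ighv3-4 and Ighv2-2 for Ighv2-4. Bases that only the other member has are not marked.
Ighv1-26: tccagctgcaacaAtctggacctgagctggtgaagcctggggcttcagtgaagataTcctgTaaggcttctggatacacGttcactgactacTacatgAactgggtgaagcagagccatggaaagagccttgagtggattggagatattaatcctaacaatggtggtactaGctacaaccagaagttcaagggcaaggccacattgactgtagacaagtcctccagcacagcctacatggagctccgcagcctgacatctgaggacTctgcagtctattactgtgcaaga
Ighv1-55: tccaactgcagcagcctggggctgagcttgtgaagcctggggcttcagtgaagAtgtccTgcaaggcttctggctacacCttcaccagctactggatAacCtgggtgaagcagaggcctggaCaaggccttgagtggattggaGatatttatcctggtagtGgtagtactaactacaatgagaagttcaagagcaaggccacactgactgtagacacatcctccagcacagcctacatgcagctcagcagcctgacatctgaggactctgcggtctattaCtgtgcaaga
Ighv1-39: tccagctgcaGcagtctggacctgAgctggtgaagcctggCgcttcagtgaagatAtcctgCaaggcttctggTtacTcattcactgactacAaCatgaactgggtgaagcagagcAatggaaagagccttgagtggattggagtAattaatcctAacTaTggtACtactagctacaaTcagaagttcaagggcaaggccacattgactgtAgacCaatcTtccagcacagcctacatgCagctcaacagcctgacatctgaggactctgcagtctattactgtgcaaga
Ighv1-64: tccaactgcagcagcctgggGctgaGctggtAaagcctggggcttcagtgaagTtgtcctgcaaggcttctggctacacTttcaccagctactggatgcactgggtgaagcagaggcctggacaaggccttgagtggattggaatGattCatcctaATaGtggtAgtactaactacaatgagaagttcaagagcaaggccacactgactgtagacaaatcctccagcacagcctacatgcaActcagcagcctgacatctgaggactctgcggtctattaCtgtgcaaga
Ighv1-43: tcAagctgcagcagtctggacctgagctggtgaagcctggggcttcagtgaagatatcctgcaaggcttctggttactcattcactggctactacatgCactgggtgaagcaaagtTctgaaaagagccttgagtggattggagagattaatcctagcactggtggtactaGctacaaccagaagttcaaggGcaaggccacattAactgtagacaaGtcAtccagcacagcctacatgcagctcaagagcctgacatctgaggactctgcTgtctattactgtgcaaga
Ighv1-81: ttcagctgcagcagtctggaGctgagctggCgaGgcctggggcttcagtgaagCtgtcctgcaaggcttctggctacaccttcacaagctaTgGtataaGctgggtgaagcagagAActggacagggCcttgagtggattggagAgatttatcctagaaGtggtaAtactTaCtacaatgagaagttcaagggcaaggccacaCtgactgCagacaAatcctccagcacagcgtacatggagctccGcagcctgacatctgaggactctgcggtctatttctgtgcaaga
Ighv3-4: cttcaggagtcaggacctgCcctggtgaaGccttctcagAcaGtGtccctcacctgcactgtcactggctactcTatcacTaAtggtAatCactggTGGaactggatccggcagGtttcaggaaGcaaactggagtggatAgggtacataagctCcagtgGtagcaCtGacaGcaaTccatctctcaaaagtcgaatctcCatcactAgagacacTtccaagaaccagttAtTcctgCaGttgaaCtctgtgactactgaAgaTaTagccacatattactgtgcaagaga
Ighv2-4: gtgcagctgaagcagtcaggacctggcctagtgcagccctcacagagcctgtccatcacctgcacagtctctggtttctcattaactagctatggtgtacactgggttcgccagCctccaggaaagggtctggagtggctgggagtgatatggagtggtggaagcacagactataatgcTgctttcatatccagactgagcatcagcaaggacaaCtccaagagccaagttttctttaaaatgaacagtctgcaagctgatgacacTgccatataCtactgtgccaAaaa
Ighv2-4 differed from Ighv2-2 at 6 of the 290 bases and Ighv1-26 from Ighv1-18 at 8, whereas Ighv3-4 had 33 marked bases. The letters TACTGT, which can be read as codons for tyrosine and cysteine, stand near the 3' end of all of them but Ighv1-81. They were found on the coding strand, the only one searched, within the last 30 bases of 78 of the 110 genes (70.9%) and 17 of the 26 pseudogenes (65.4%).

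Usage was broad but uneven. The 3 segments with the highest mean share took 24.0% of the Ighv counts, the 15 highest took 57.2% and the 40 highest took 84.8%. Ighv1-26 led with a mean share of 8.88 ± 3.07% (SD, n = 20). Its share was 4.24% in the lowest library, 8.42% in the median and 18.0% in the highest, and it ranked among the top 10 of every library. Ighv1-55 followed with 8.33 ± 4.21% (lowest 2.78%, median 6.89%, highest 16.99%), and was also in the top 10 of all 20 libraries. Ighv1-39 averaged 6.76 ± 3.57% and spanned 1.67 to 14.0%. All 3 belong to the Ighv1 family, known in mice as J558, the largest of the locus.

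Next came Ighv3-6 at 4.42 ± 2.18%, Ighv5-17 at 3.89 ± 1.91%, Ighv1-53 at 3.73 ± 2.39%, Ighv1-64 at 2.78 ± 1.52% and Ighv1-18 at 2.73 ± 2.04%. Of the 15 highest, the remaining 7 were Ighv10-3, Ighv8-12, Ighv1-9, Ighv1-81, Ighv1-59, Ighv1-72 and Ighv9-3, with mean shares between 1.83% for Ighv9-3 and 2.64% for Ighv10-3. Only 4 segments, Ighv1-26, Ighv1-55, Ighv1-39 and Ighv3-6, reached 1% in all 20 libraries, whereas 64 reached 1% in at least 1 library. Several leading segments have a close copy, such as Ighv1-72, which is 99.1% identical to Ighv1-62-3, so the split within such a pair is uncertain.

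**Figure D1:**
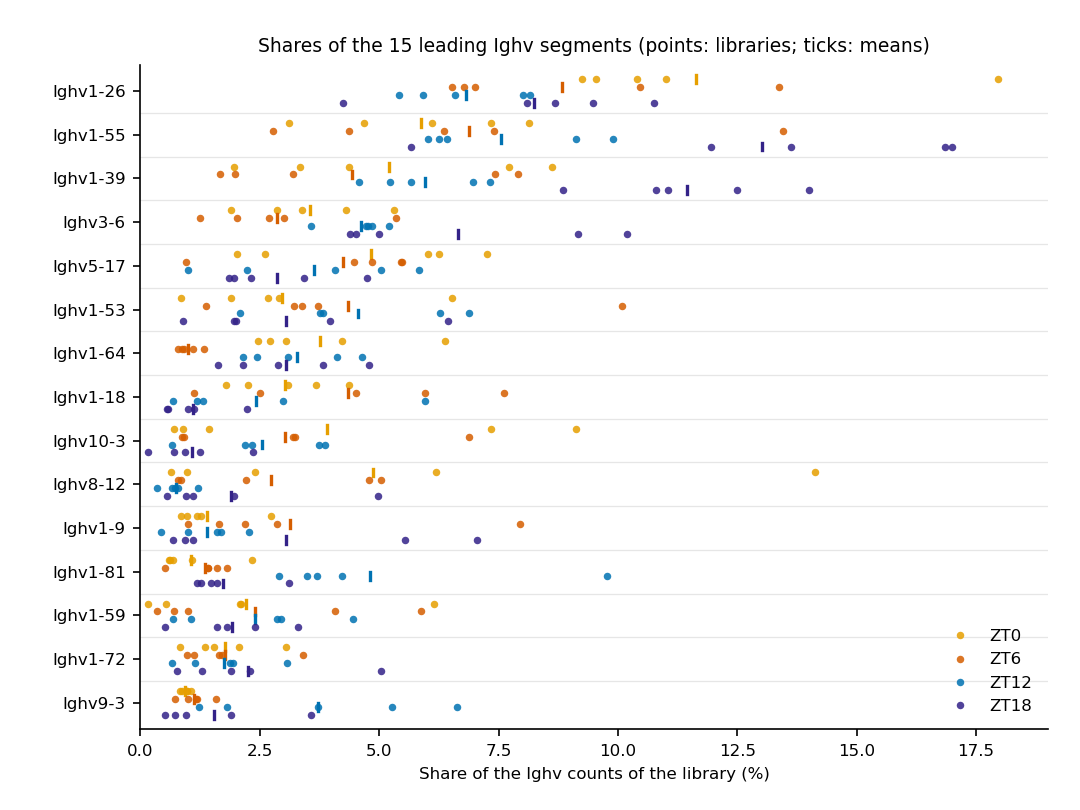
Share of the Ighv counts of a library (x axis, %) for the 15 segments of highest mean share (y axis), with 1 point per library, colours for the 4 times and a short bar for each time's mean (n = 5). Ighv1-26 spans 4.24 to 18.0%. The ZT18 points of Ighv1-39 (8.85 to 14.0%) lie above the Ighv1-39 points of the other times, which end at 8.62%.

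The leading segment changed from animal to animal, and 8 segments ranked first in some library. Ighv1-55 was first in 6 libraries, Ighv1-26 in 5 and Ighv1-39 in 4. The other 5 were each first in 1 animal: Ighv8-12 in ZT0 replicate 1 (14.1%), Ighv13-2 in ZT0 replicate 5 (10.9%), Ighv1-53 in ZT6 replicate 1 (10.1%), Ighv1-81 in ZT12 replicate 1 (9.77%) and Ighv1-52 in ZT12 replicate 5 (7.29%). At least 1 library ranked each of 44 segments among its top 10, while only Ighv1-26 and Ighv1-55 were in the top 10 of all.

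By family, Ighv1 took 67.5 ± 5.56% of the Ighv counts (SD, n = 20) with 72 members, 20 of them pseudogenes. Ighv5 followed with 8.32 ± 2.49%, led by Ighv5-17. Ighv3 held 6.34 ± 2.30%, led by Ighv3-6. Ighv10 held 3.76 ± 2.87%, in 2 members, of which Ighv10-3 was the higher. Ighv8 held 3.65 ± 3.32%, led by Ighv8-12, and Ighv2, Ighv9, Ighv14 and Ighv6 held between 1.01% and 2.72%, led by Ighv2-2 (0.932%), Ighv9-3, Ighv14-3 (1.22%) and Ighv6-3 (0.620%). Of the families, 0 of 15 differed over the 4 times at an adjusted p of 0.05 (permutation, Benjamini-Hochberg adjusted over the 15, 2 families with an unadjusted p under 0.05). The lowest were Ighv9 with an adjusted p of 0.0908 and Ighv3 with 0.156. Ighv9 averaged 4.58 ± 2.34% at ZT12, against 1.498 ± 0.291% at ZT0 (SD, n = 5 each), and the groups did not overlap, as ZT12 ranged from 1.85 to 7.63% and ZT0 from 1.06 to 1.83% (unadjusted exact permutation p = 0.00794, the smallest that 5 against 5 allows).

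Pseudogenes, which cannot encode a heavy chain, made up 0.0676 ± 0.0333% of the Ighv counts (SD, n = 20). None had a mean share of 0.1%, whereas 78 of the 110 genes did. The 3 highest pseudogenes were Ighv1-2 with 0.0171%, Ighv1-62 with 0.0101% and Ighv1-21 with 0.00898%. Ighv1-62 is 96.9% identical to Ighv1-55, and whether its counts are reads of that segment was not tested. The pseudogene share was 0.0688 ± 0.0214% (ZT0), 0.0594 ± 0.0234% (ZT6), 0.0610 ± 0.0268% (ZT12) and 0.0813 ± 0.0562% (ZT18; n = 5 each), which did not pass the test over the times (permutation p = 0.766).

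Along the locus, segments with high and with low shares stood side by side. Ordered by distance from the D segments, the 46 nearest members held 24.1% of the counts, the 45 in the middle 37.6% and the 45 farthest 38.4% on average. The annotation calls 41 of the nearest, 31 of the middle and 38 of the farthest members genes, and the rest pseudogenes. None of the 3 shares passed the test over the times (permutation p = 0.345 for the nearest, 0.121 for the middle and 0.271 for the farthest members).

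**Figure D2:**
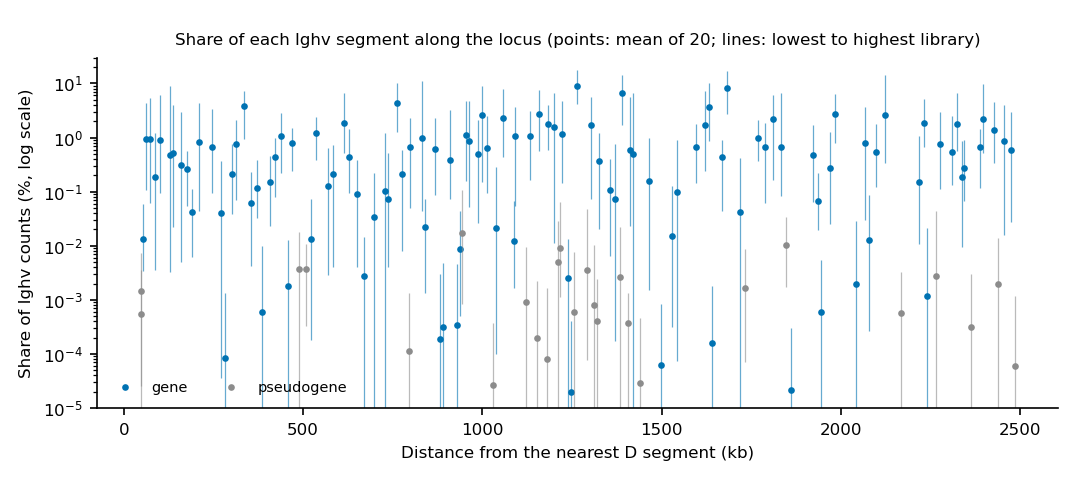
Mean share of the Ighv counts over 20 libraries (points, log y axis in %) for each segment against its distance from the nearest D segment (x axis, kb), with lines from the lowest to the highest library (cut at the bottom of the axis) and pseudogenes in grey. Pseudogenes lie at or below 0.0171%, and segments above 1% have neighbours far below 0.1%.

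Animals differed far more in single Ighv segments than in other genes. Among the 118 members that passed the filter on low counts, the median within-time SD was 1.53 on the log2 CPM scale (CPM from here on after edgeR's TMM scaling), against 0.186 for 13738 other tested genes outside the variable segments. In each library, the median distance of an Ighv segment from the mean of its time was larger than that of other genes. The difference was 0.768 ± 0.167 log2 units (SD, n = 20), and positive in 20 of 20 libraries (sign-flip permutation p = 1e-05, the smallest that 100000 resamples can give). These other genes were the 13692 within the expression range of the segments, nearly all of the 13738, so expression level was not matched. Light chain variable segments had a like spread, with a median within-time SD of 1.43, and the difference of Ighv from them, 0.0126 ± 0.122 log2 units, was positive in 9 of 20 libraries (sign-flip permutation p = 0.649). The coefficient of variation of the share, among the 40 leading segments, had a median of 82.5%. It was lowest for Ighv1-26 (34.6%), Ighv1-19 (48.7%), Ighv5-17 (49.0%), Ighv3-6 (49.2%) and Ighv8-8 (49.4%). It was highest for Ighv13-2 (239%), Ighv5-6 (151%), Ighv5-4 (150%), Ighv1-20 (134%) and Ighv1-66 (128%). The median fold between the highest and the lowest library was 22.8 over the 40.

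Many high shares were confined to 1 or few animals. By a rule chosen after the values were seen, a share of at least 2% that was at least 10 times the median of the other 19 libraries occurred 17 times, in 12 segments and 11 libraries (ZT0 6 times, ZT6 6, ZT12 2, ZT18 3). Ighv2-4 took 9.003% in ZT6 replicate 5 against a median of 0.0210% in the others. Its 97.7% identical copy Ighv2-2 stood at 1.41% there. Ighv13-2, the only member of its family, took 10.9% in ZT0 replicate 5 against a median of 0.278%. The same animal also held high shares of Ighv5-9 (4.03%), Ighv6-6 (3.25%) and Ighv5-4 (2.94%). Ighv1-61 took 6.52% in ZT12 replicate 4 against 0.199%, where Ighv1-52, which is 98.6% identical to it, took 6.43%, so that the split between both is uncertain. Ighv1-42 took 5.69% in ZT0 replicate 2 against 0.228%, and Ighv5-6 took 6.24% in ZT6 replicate 4, 12.5-fold over the median of the others. Ighv5-4 stood out in 3 animals of 3 times, with 5.42% in ZT12 replicate 4, 3.26% in ZT6 replicate 4 and 2.94% in ZT0 replicate 5. Ighv1-20 stood out in 2 animals of 1 time, with 6.34% and 6.79% in ZT6 replicates 2 and 3, and Ighv1-43 in 2 others, with 2.55% and 6.69% in ZT18 replicates 2 and 3.

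Whole profiles of libraries were then compared by the Bray-Curtis distance of the Ighv shares, which is 0 for equal profiles and 1 for profiles with no segment in common. Libraries of different times lay farther apart (mean 0.413 over 150 pairs) than libraries of the same time (mean 0.368 over 40 pairs). The difference of 0.0449 had p = 1e-05 by permutation of the library labels (one-sided, 100000 resamples, the smallest they can give). In 17 of 20 libraries the mean distance to other times was larger than that to the same time, and for 15 of 20 the nearest library was one of the same time. Within times, the mean distance was 0.396 (ZT0), 0.414 (ZT6), 0.321 (ZT12) and 0.339 (ZT18), so that the ZT12 and ZT18 animals were the most alike. Between times, it was 0.395 (ZT12 and ZT0), 0.411 (ZT12 and ZT6) and 0.414 (ZT6 and ZT0). With ZT18 it was 0.423 (ZT0), 0.440 (ZT6) and 0.392 (ZT12). The ZT0 animals and the ZT6 animals were thus on average no closer to each other than to the ZT12 animals. The closest pair was ZT12 replicates 2 and 3 at 0.159, followed by ZT18 replicates 2 and 3 at 0.233 and ZT0 replicates 1 and 2 at 0.255. These pairs were not copies of 1 library: Ighv5-17, for example, took 2.23% in ZT12 replicate 2 and 5.83% in replicate 3. The farthest pair was ZT18 replicate 4 and ZT6 replicate 4 at 0.540.

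The difference between and within times passed the test without each time in turn, and lay then between 0.0297 (without ZT18, permutation p = 0.00117) and 0.0562 (without ZT0, permutation p = 3e-05). It was 0.0344 without the 7 segments called over the times below (permutation p = 0.00012). The light chain variable segments showed a smaller difference, 0.0202, with a mean of 0.379 between times and 0.359 within times (permutation p = 0.00443). The 2 differences were not tested against each other.

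**Figure D3:**
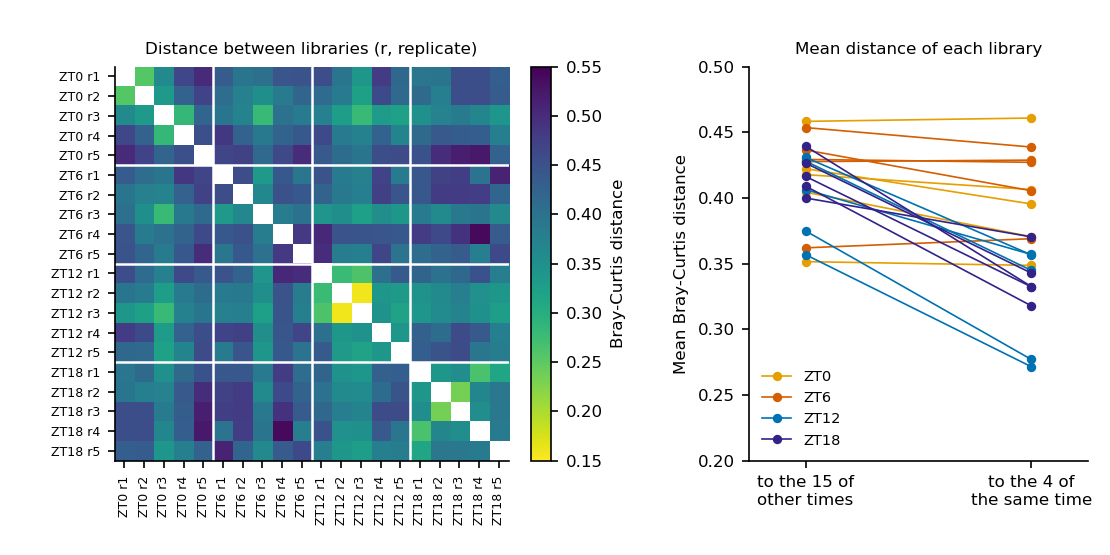
Left, Bray-Curtis distance of Ighv shares between each pair of the 20 libraries (yellow, close; dark, far), with white lines between the times. Right, the mean distance of each library to the 15 libraries of other times and to the 4 of its own time (1 line per library), which falls towards the own time in 17 of 20 libraries and lies lowest for ZT12 replicates 2 and 3.

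The number of segments that made up 50% of the Ighv counts was 6 to 10 in every library. It averaged 7.80 ± 1.30 (ZT0), 8.80 ± 0.447 (ZT6), 9.60 ± 0.548 (ZT12) and 6.60 ± 0.894 (ZT18; SD, 5 animals a time), and differed over the times (permutation p = 0.00104, adjusted p = 0.00468 over 9 measures of usage). ZT12 animals used 9 to 10 segments for it, against 6 to 9 in ZT0 animals, a difference of 1.80 (exact permutation p = 0.0476, adjusted 0.107). ZT18 animals used 6 to 8, against 8 to 9 in ZT6 animals, a difference of -2.20 (exact permutation p = 0.0159, adjusted 0.0714). With 5 animals a group, an exact p cannot go below 0.00794. None of the 12-hour contrasts of the 9 measures had an adjusted p under 0.05. For these contrasts, here and in the section on processing, to pass means an unadjusted exact permutation p under 0.05. The ZT12 minus ZT0 difference did not pass without ZT0 replicate 1 (1.35, exact permutation p = 0.0794) or without ZT12 replicate 3, 4 or 5 (1.70, exact permutation p = 0.0794).

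The effective number of segments, the inverse Simpson index, counts how many equally used segments would give the same unevenness. In ZT18 animals it was 16.8, 17.7, 14.8, 16.5 and 19.8, against 22.5, 23.9, 26.3, 22.6 and 21.9 in ZT6 animals. The groups did not overlap, and the mean difference was -6.31 (exact permutation p = 0.00794, adjusted 0.0714). In ZT12 animals it was 24.2, 24.7, 26.5, 27.99 and 27.2, against 16.9, 23.4, 24.5, 16.7 and 23.9 in ZT0 animals, which overlapped only where ZT12 replicate 1 fell under ZT0 replicate 3, with a difference of 5.06 (exact permutation p = 0.0159, adjusted 0.0714). This difference did not pass without ZT12 replicate 3, 4 or 5 (4.59 to 4.96, exact permutation p 0.0635 to 0.0714). Over the 4 times the effective number had a permutation p of 0.00058 (adjusted p = 0.00468). The share of the highest segment ran the other way, at 12.6 ± 3.46% (ZT0), 11.1 ± 2.36% (ZT6), 8.61 ± 1.39% (ZT12) and 14.8 ± 2.02% (ZT18; permutation p = 0.00855, adjusted p = 0.0165).

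Both the number making up 50% and the effective number were lower in ZT18 than in ZT6 animals only before adjustment (adjusted p = 0.0714 for each). Neither had an unadjusted exact permutation p under 0.05 without the segments Ighv1-55 and Ighv1-39. Ighv1-55 took 11.9, 16.99, 16.8, 13.6 and 5.66% in ZT18 animals, against 7.41, 2.78, 6.36, 4.38 and 13.5% in ZT6 animals. It was high in 4 of 5 ZT18 animals and 1 ZT6 animal, so the groups overlapped, and its CPM did not pass the test (log2 fold change 0.86 ± 0.37, SE; edgeR adjusted p = 0.140). Ighv1-39 took 12.5, 8.85, 10.8, 11.1 and 14.0% in ZT18 animals, against 1.98, 7.43, 7.92, 3.19 and 1.67% in ZT6 animals. These groups did not overlap, but the gene-wise test was not passed (log2 fold change 1.30 ± 0.46, SE; edgeR adjusted p = 0.0711). Either Ighv1-55 or Ighv1-39 was the highest segment of each ZT18 library. Taking both out therefore works towards higher evenness at ZT18 by construction, and does not show what carries the difference. With both segments taken out of the sum, an alternative added after the data were seen, the number of segments making up 50% of the counts was 8.60 at ZT18 and 8.40 at ZT6 (exact permutation p = 1), and the effective number was 21.7 at ZT18 and 23.5 at ZT6 (exact permutation p = 0.381). The ZT12 against ZT0 difference in effective number was then 6.43 (exact permutation p = 0.0159). With segments of at least 97% identity merged it was 3.98 (exact permutation p = 0.0714).

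**Figure D4:**
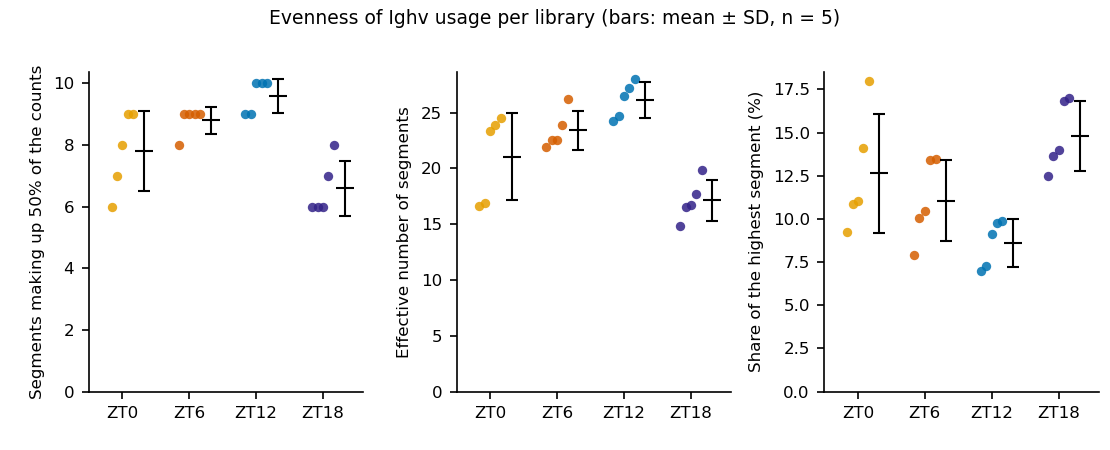
Number of segments making up 50% of the Ighv counts, effective number of segments and share of the highest segment (%), with 1 point per library by time and the mean ± SD beside them (n = 5). ZT18 animals have effective numbers of 14.8 to 19.8, below all ZT6 and ZT12 animals, and the highest single shares on average (14.8%).

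Evenness was set against 3 values that could move with it, over the 20 libraries. The number of segments making up 50% of the counts had Pearson's r = 0.425 with library depth (permutation p = 0.0549, adjusted 0.165; Spearman's rho = 0.349, p = 0.130; r = 0.278 without the 2 libraries farthest from the median depth). It had r = -0.0785 with the Ighm plus Ighd share of the constant counts (p = 0.739, adjusted 0.739; rho = -0.0595, p = 0.802; r = -0.153 without 2) and r = 0.0942 with summed enterocyte markers (p = 0.711, adjusted 0.739; rho = 0.0712, p = 0.766; r = 0.197 without 2). The sources name no sequencing batch, so no value within batches can be given.

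Ighv segments as a whole took 7.82 ± 0.593% (ZT0), 7.11 ± 0.476% (ZT6), 7.52 ± 0.547% (ZT12) and 6.71 ± 0.202% (ZT18) of all counts (SD, 5 animals a time), which differed over the times (permutation p = 0.0125, adjusted p = 0.0165). Neither 12-hour contrast passed: the difference was -0.298 percentage points for ZT12 minus ZT0 (exact permutation p = 0.413) and -0.400 for ZT18 minus ZT6 (exact permutation p = 0.151). Of the heavy chain counts alone, that is Ighv plus constant regions, the share was 18.0 ± 0.351% at ZT18, against 19.8 ± 1.79% at ZT6 (difference -1.83, exact permutation p = 0.0317, adjusted 0.0893).

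Single segments were tested in the fit over all 13967 genes, by edgeR's quasi-likelihood test at a Benjamini-Hochberg adjusted p under 0.01. Of 118 members tested, 7 (5.93%) differed between any of the 4 times, against 19.5% of all genes tested. An unadjusted p under 0.05 was found for 38 members (32.2%), against 41.9% of all genes. In ZT18 minus ZT6, 2 of 118 (1.69%) rose and 0 fell. Of all genes, 8.24% were called in either direction, with 4.05% that rose and 4.2% that fell. In that contrast 31 members (26.3%) had an unadjusted p under 0.05, against 27.8% of all genes. In ZT12 minus ZT0, 0 of 118 were called, against 3.86% of all genes, with 1.96% that rose and 1.9% that fell. There, 21 members (17.8%) had an unadjusted p under 0.05, against 21.3% of all genes. DESeq2 called 5 of 136 members in that contrast (3.68%), against 4.16% of the 19863 genes it was given. The median log2 fold change of the members was 0.11 in ZT12 minus ZT0 and -0.41 in ZT18 minus ZT6, beside 0.00 in either contrast for all genes tested; the median absolute change was 0.85 and 0.89, beside 0.14 and 0.17. The groups of ZT12 minus ZT0 did not overlap for 4 members (3.39%), against 7.23% of all genes. Those of ZT18 minus ZT6 did not overlap for 6 members (5.08%), against 11.5% of all genes. In the edgeR fit the share of members called lay below that of all genes in each of the 3 tests, whereas with DESeq2 it was close to that of all genes (16.2% against 17.1% over the times, and 7.35% against 7.49% in ZT18 minus ZT6).

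Ighv1-64 was the segment called in both tests that also was among the leading ones. It took 4.78, 2.14, 1.62, 2.89 and 3.83% in ZT18 animals, against 0.864, 0.790, 1.33, 1.11 and 0.913% in ZT6 animals. All 5 ZT6 animals lay below every animal of the other 3 times, which spanned 1.62 to 6.38%. In CPM the rise in ZT18 minus ZT6 was 1.57 ± 0.32 on the log2 scale (SE; edgeR adjusted p = 0.00286, and 0.0103 without ZT6 replicate 1), and the test over any time had an adjusted p of 0.00091. In ZT12 minus ZT0 its log2 fold change was -0.06 ± 0.31 (adjusted p = 0.949).

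Ighv1-43 was rare in most animals and high in 2. It had 1057, 78042, 156899, 8848 and 1403 counts in ZT18 animals, against 156, 14, 469, 0 and 66 in ZT6 animals. At ZT12 it had 4458, 1235, 416, 388 and 985 counts, and at ZT0 5 to 300. All ZT18 animals lay above all ZT6 and ZT0 animals, but replicates 2 and 3 alone carried most of the ZT18 counts. The fitted rise in ZT18 minus ZT6 was 8.44 ± 1.91 on the log2 scale (SE; edgeR adjusted p = 0.00608), and it did not pass without any 1 of ZT6 replicates 1, 2, 4 or 5 or ZT18 replicate 2 (adjusted p 0.0110 to 0.0188). The test over any time had an adjusted p of 0.000836 and passed without each library in turn (at most 0.00243). The 0 in ZT6 replicate 4 allows a share of up to 8.96e-05% (3 counts).

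Ighv3-4 was called over the times with an adjusted p of 0.00226. It had 0, 2, 2, 4 and 106 counts in ZT18 animals, against 131, 3216, 855, 144 and 68 in ZT6 animals, and 44291, 9107, 8985, 775 and 34 counts in ZT12 animals, against 629, 274, 435, 19 and 118 in ZT0 animals. It was thus high in 3 ZT12 animals, of which replicates 2 and 3 are the pair with the most similar profiles, and nearly absent in 4 ZT18 animals. The 0 in ZT18 replicate 1 allows a share of up to 0.000103% (3 counts). Neither 12-hour contrast passed (log2 fold change 5.74 ± 1.66 in ZT12 minus ZT0, adjusted p = 0.0419, and -4.97 ± 1.77 in ZT18 minus ZT6, adjusted p = 0.0704).

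Ighv2-4 was called over the times (adjusted p = 0.00114), with 302234 counts in ZT6 replicate 5 and 84 to 9715 in the other 19 libraries. Without that library its adjusted p was 0.0814.

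Ighv1-81 took 9.77, 3.71, 4.21, 3.49 and 2.90% in ZT12 animals, against 0.612, 1.08, 0.691, 0.596 and 2.35% in ZT0 animals, with no overlap. Its adjusted p was 0.0043 over the times (0.0291 without ZT12 replicate 1) and 0.0132 in ZT12 minus ZT0, where its log2 fold change was 2.29 ± 0.54 (SE). Ighv9-3 was also higher, with 5.26, 6.63, 3.71, 1.81 and 1.23% in ZT12 animals, against 0.982, 0.872, 1.07, 0.969 and 0.826% in ZT0 animals, again with no overlap. Its log2 fold change in ZT12 minus ZT0 was 2.16 ± 0.52 (SE; adjusted p = 0.0161), and its adjusted p over the times, 0.0059, lay at or above 0.01 in 10 of the 20 fits that left out 1 library (up to 0.0295 without ZT12 replicate 2). Ighv1-76 took 3.45, 1.49, 2.36, 2.11 and 6.77% in ZT18 animals, against 1.89, 1.54, 1.77, 1.06 and 2.85% in ZT6 animals, and 0.634, 0.903, 0.569, 1.23 and 0.993% in ZT12 animals, against 1.46, 1.196, 0.912, 1.12 and 0.865% in ZT0 animals. Its groups overlapped within both contrasts, while all ZT18 animals lay above all ZT12 animals. Its adjusted p was 0.00519 over the times, and between 0.0103 and 0.0132 without ZT12 replicate 1 or 3 or ZT18 replicate 1 or 5.

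**Figure D5:**
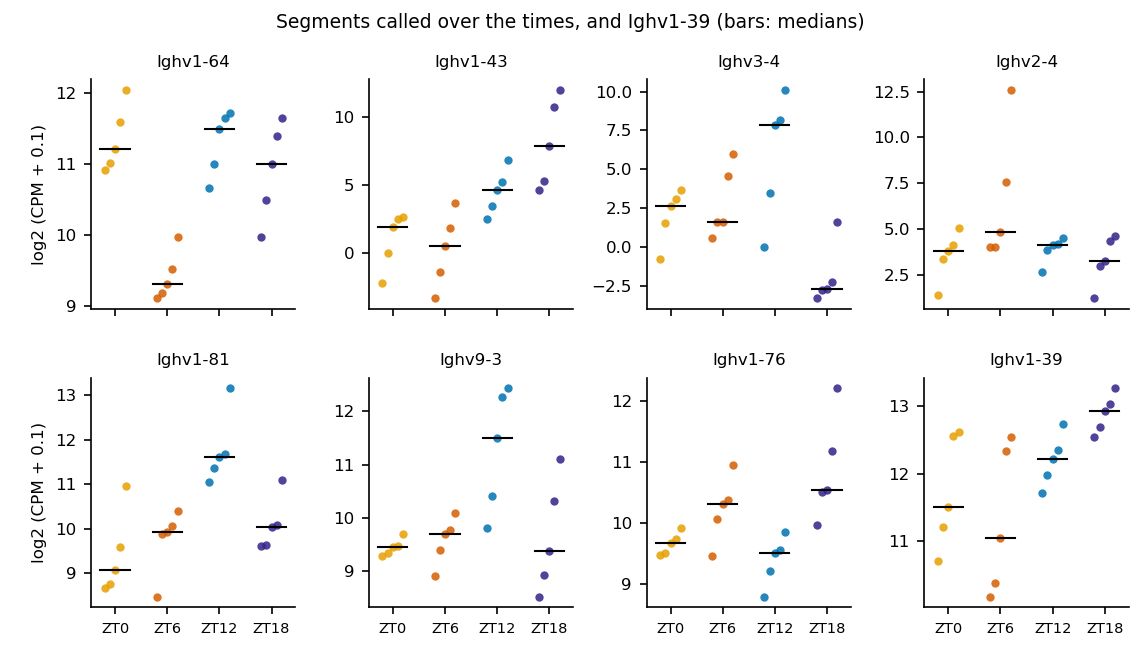
Levels in log2 (CPM + 0.1) by time for the 7 segments called over the times and, in the last panel, Ighv1-39, which was not called, with 1 point per library and a bar at the median. The ZT6 points of Ighv1-64 lie below its other points, but ZT6 replicate 3 (999.75 CPM) all but meets ZT18 replicate 3 (999.81 CPM). The 3 high points of Ighv3-4 at ZT12 and the single high point of Ighv2-4 at ZT6 stand apart. The ZT18 points of Ighv1-39 (lowest 5967 CPM) lie above its ZT6 points (highest 5950 CPM), although its edgeR adjusted p was 0.0711.

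Some segments had groups apart without passing the threshold. In ZT18 minus ZT6 these were Ighv1-39, Ighv1-22, Ighv1-20 and Ighv1-19. Ighv1-22, named after its values were seen, took 0.552, 0.680, 0.292, 0.146 and 0.799% in ZT18 animals, against 1.33, 4.64, 0.997, 1.12 and 1.91% in ZT6 animals (log2 fold change -2.05 ± 0.51, SE; edgeR adjusted p = 0.0106). Ighv1-20 took 0.0655, 0.451, 0.317, 0.0305 and 0.0114% in ZT18 animals, against 3.35, 6.34, 6.79, 2.20 and 0.762% in ZT6 animals (log2 fold change -4.59 ± 1.42, SE; adjusted p = 0.0374). Ighv1-20 is 98.6% identical to Ighv1-37, so that its level may include reads of that copy. Ighv1-19 averaged 1.44% at ZT18 and 2.83% at ZT6 (adjusted p = 0.0730).

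In ZT12 minus ZT0 the other 2 segments with groups apart, both named after their values were seen, were Ighv1-56 and the pseudogene Ighv2-1. Ighv1-56 had 313, 13, 11, 8191 and 611 counts in ZT12 animals, against 0 counts in all 5 ZT0 animals. Summed over the libraries of a time, that is 39.4 counts per M counts at ZT12, at least 2845-fold higher than the 0.0138 that 3 counts over the ZT0 libraries allow, with most of it from ZT12 replicate 4 (adjusted p = 0.0586). This fold holds for the pooled counts and is no lower bound for single animals, as ZT12 replicates 2 and 3 had 13 and 11 counts. It also had 12104, 2213, 3394, 287 and 121 counts at ZT18 and 0 to 263 at ZT6. Ighv2-1 had 1 to 12 counts in ZT12 animals, against 9 to 37 in ZT0 animals, and its CPM did not overlap (adjusted p = 0.232).

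The other genes of the heavy chain locus and of its recombination, transcription, switching and mutation were read in the same fit. Of 30 listed genes, 25 could be tested. The recombinase genes Rag1 and Rag2 had 0 counts in all libraries, and Dntt, which encodes the transferase that adds bases at V(D)J joins, had 4 counts in all. None of the 25 passed over the times or in ZT12 minus ZT0 at an adjusted p of 0.01, against 19.5% and 3.86% of all genes tested. In ZT18 minus ZT6, 1 of the 25 passed, against 8.24% of all genes, and it rose. This was Pou2f2, which encodes the octamer-binding factor Oct2 of V segment promoters, at 32.2 ± 2.26 CPM at ZT18 and 27.4 ± 2.41 CPM at ZT6 (log2 fold change 0.23 ± 0.06, SE; adjusted p = 0.0074). Its partner Pou2af1 stood at 716 ± 23.6 CPM at ZT18, against 777 ± 42.7 CPM at ZT6 (log2 fold change -0.12 ± 0.04, SE; adjusted p = 0.0271). Igha, the constant region these cells express, averaged 321308 CPM at ZT12, against 258626 CPM at ZT0 (log2 fold change 0.31 ± 0.09, SE; adjusted p = 0.0435). The J segments Ighj1 to Ighj4, which are counted apart from the joined V segments, had mean levels of 2.34 to 35.8 CPM, and their adjusted p in the 2 contrasts was at least 0.114.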

How the data were processed

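RNA from sorted IgA+ PCs of 20 mice was sequenced commercially for the authors, 5 animals at each of 4 times, and 2 tables were deposited: raw read counts per gene, with no normalization, and FPKM values per gene. For the deposited counts, aligner, counter, genome build and use of strand: not given in the sources used here. Without strand, reads of Ighv1-62-1 and of an antisense RNA that overlaps it cannot be told apart, and Ighv1-2 and Ighv1-5 overlap microRNA genes. Symbols, biotypes, positions and germline sequences came from GENCODE M21 (46574 identifiers matched). Columns of both tables were matched to samples by their labels.

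Shares were taken in the Ighv counts of each library. Counts of the whole table were tested in edgeR 4.0.16 under R 4.3.3 (quasi-likelihood test, TMM scaling, filterByExpr, 4 groups, Benjamini-Hochberg over 13967 genes, adjusted p under 0.01). DESeq2 1.42.0 was an alternative. One value per library was tested by permutation (100000 resamples over the times; exact for 5 against 5, two-sided), in Python 3.11.15 with numpy 2.4.6 and pandas 2.3.3. The tests were tested on simulated data. The edgeR p-values rest on the spread between animals, since each library was 1 animal.

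The deposited FPKM values, which held 125 of the 136 members, served as an alternative for shares. Alternatives covered tool, scaling, filter, members, near-identical copies, distance, denominator, replicate block and leaving out each library. Segments named were the 15 of highest mean share, those leading a library, those called, the 5 of lowest and 5 of highest variation among the 40 highest, the leader of each family of at least 1% and the 3 highest pseudogenes. The members and gene lists were chosen with earlier results of these data known. Some marker genes are not reported here.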

Additional observations from a re-analysis of the deposited data

Results flagged for a closer look

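In 30 of 168 groups of 5 libraries that were examined, 1 library stood apart from the other 4 of its time, with a gap to the nearest of them of more than 0.71 of the whole range (Dixon's limit for 5). For normally distributed values chance flags about 1 in 20 such groups, and its rate for skewed shares or for whole-number counts was not tested. The segments are those named by the rule, and the values are shares of the Ighv counts.

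The number of segments making up 50% of the counts was 8 in ZT6 replicate 1 and 9 in each of the other 4. Ighv1-26 took 17.96% in ZT0 replicate 4 against a median of 9.96% in the others. Ighv5-17 took 0.952% in ZT6 replicate 4 against a median of 5.15% in the others. Ighv1-53 took 10.1% in ZT6 replicate 1 against a median of 3.296% in the others. Ighv1-9 took 2.73% in ZT0 replicate 3 against a median of 1.08% in the others and 7.94% in ZT6 replicate 1 against a median of 1.91% in the others. Ighv1-81 took 2.35% in ZT0 replicate 5 against a median of 0.651% in the others, 9.77% in ZT12 replicate 1 against a median of 3.6% in the others and 3.11% in ZT18 replicate 5 against a median of 1.38% in the others. Ighv1-19 took 0.5805% in ZT18 replicate 1 against a median of 1.71% in the others. Ighv1-52 took 3.88% in ZT0 replicate 3 against a median of 0.798% in the others and 3.26% in ZT6 replicate 3 against a median of 0.823% in the others. Ighv13-2 took 10.9% in ZT0 replicate 5 against a median of 0.3198% in the others and 1.51% in ZT6 replicate 2 against a median of 0.133% in the others. Ighv8-8 took 2.11% in ZT12 replicate 1 against a median of 0.826% in the others. Ighv2-2 took 2.79% in ZT12 replicate 5 against a median of 0.52% in the others and 1.399% in ZT18 replicate 5 against a median of 0.378% in the others. Ighv5-4 took 2.94% in ZT0 replicate 5 against a median of 0.1201% in the others, 5.42% in ZT12 replicate 4 against a median of 0.346% in the others and 0.796% in ZT18 replicate 3 against a median of 0.0738% in the others.

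Ighv5-6 took 6.24% in ZT6 replicate 4 against a median of 0.637% in the others. Ighv1-66 took 3.29% in ZT0 replicate 2 against a median of 0.423% in the others and 1.89% in ZT12 replicate 1 against a median of 0.548% in the others. Ighv6-3 took 1.42% in ZT12 replicate 5 against a median of 0.186% in the others. Ighv2-4 took 9.003% in ZT6 replicate 5 against a median of 0.0336% in the others. Ighv3-4 took 1.19% in ZT12 replicate 1 against a median of 0.156% in the others and 0.00415% in ZT18 replicate 5 against a median of 7.53e-05% in the others. Ighv1-2 took 0.0164% in ZT6 replicate 5 against a median of 0.00184% in the others and 0.0273% in ZT12 replicate 3 against a median of 0.003396% in the others. Ighv1-21 took 0.0644% in ZT12 replicate 5 against a median of 0.00531% in the others.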

How the results depend on the processing

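Calls of single segments depended on the tool. DESeq2, given 136 members among 19863 genes (those with no adjusted p included), called 22 members over the times (16.2%, against 17.1% of all genes), 5 in ZT12 minus ZT0 (3.68% against 4.16%) and 10 in ZT18 minus ZT6 (7.35% against 7.49%), and it kept 6 of the 7 segments called by edgeR; for Ighv2-4 it gave no adjusted p. With the Ighv sum as library size, 1 member was called in ZT18 minus ZT6. Of all 13967 genes, 376 were then called, against 1151 with TMM. Scaling by library totals shifted the median log2 fold change of all genes to -0.17 in ZT12 minus ZT0, where 38 genes then rose and 921 fell, against 274 and 265 with TMM, and to -0.03 in ZT18 minus ZT6, where 239 rose and 451 fell, against 565 and 586; the members called there were 0 and 2, as with TMM.

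The replicate numbers did not pair the animals: over 30 pairs of the same number the correlation of deviations ran from -0.121 to 0.0986, and 4 of 20 libraries correlated best with their own number. With a replicate block, 2 segments were called over the times (Ighv1-43 and Ighv1-64), and the contrasts kept their counts of 0 and 2. Of all 13967 genes, 2615 were called over the times with the block, against 2727 without it. In the contrasts these counts were 531 (ZT12 minus ZT0) and 1115 (ZT18 minus ZT6), against 539 and 1151.

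Merging segments of at least 97% identity left ZT12 minus ZT0 differences of 1.4 in the number making up 50% of the counts, 3.98 in the effective number and -2.72 percentage points in the highest share, none of which passed. Without Ighv1-55 and Ighv1-39, chosen after the data were seen, the number making up 50% had p = 0.41 over the times (permutation), 1.8 in ZT12 minus ZT0 and 0.2 in ZT18 minus ZT6, a reversed sign; the effective number had p = 0.0513 over the times and -1.81 in ZT18 minus ZT6, and the highest share 1.49 in ZT18 minus ZT6. Counting segments up to 90% of the counts gave a mean of 36.25, with differences of 1.6 and -3.8 that did not pass. The mean Ighv share was 12.6% of immunoglobulin counts and 20.1% of heavy chain counts, where ZT18 minus ZT6 was -1.83. The cause of these changes was not tested, beyond the alternatives' own construction.

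Without each library in turn, 5 to 8 segments were called over the times, 0 to 1 in ZT12 minus ZT0 (1 without ZT0 replicate 5, ZT12 replicate 5 or ZT18 replicate 3) and 1 to 3 in ZT18 minus ZT6 (1 without ZT6 replicate 1, 2 or 5 or ZT18 replicate 2). Among all genes, these fits called 2357 to 2692 over the times, 390 to 568 in ZT12 minus ZT0 and 833 to 1185 in ZT18 minus ZT6. In ZT12 minus ZT0 the number making up 50% differed by 1.35 to 2.1, the effective number by 3.96 to 5.92 and the highest share by -4.88 to -2.70. In ZT18 minus ZT6 these ranged over -2.55 to -2.05, -6.99 to -5.60 and 2.95 to 4.33, and the highest share did not pass in 7 of 20 such fits. The Ighv share of all counts differed by -0.478 to -0.066 percentage points in ZT12 minus ZT0 and by -0.494 to -0.224 in ZT18 minus ZT6, and neither passed in any of these fits. The distance between minus within times was 0.0380 to 0.0507. Whether depth limited shares above the floor of 3 counts was not tested. Members with few counts, such as Ighv2-1 with 1 to 12 counts in ZT12 animals, carry wide counting error.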
